A study of Mus musculus with 11 samples.

Results

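Prostaglandin E (PGE) was added together with lipopolysaccharide (LPS) to cultured mouse macrophages for 1 hour, and what it changed was read by comparing the 4 LPS plus PGE arrays with the 3 arrays of LPS alone. These are 7 of the 11 arrays of the study, chosen by their titles and not by any measured value. All cells were macrophages derived in culture from marrow of C57Bl/6 wild-type mice, with 5 ng/ml macrophage colony-stimulating factor. The LPS arrays came from cells given 100 ng/ml LPS for 1 hour, and the LPS plus PGE arrays from cells given the same LPS with 10 µM PGE for 1 hour. The other 4 arrays came from untreated cells, which are used here as the resting level beside each gene. A further LPS array was left out by the authors for quality. Which prostaglandin E was used, and whether replicates were separate animals or cultures, is not given in the labels, so p-values measure the spread between these samples, which may be technical. None of the 11 arrays came from cells given PGE without LPS. An effect of PGE alone therefore cannot be told from a changed response to LPS.

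LPS is a bacterial cell wall component that Toll-like receptor 4 recognises, and it switches on NF-kB, MAP kinases and interferon regulatory factors through the adaptors MyD88 and TRIF. Prostaglandin E is a lipid mediator made by macrophages themselves. Its receptors EP2 and EP4 couple to the stimulatory G protein and raise cyclic AMP, which activates protein kinase A and, through it, the transcription factor CREB. In macrophages the pathway is known as a modulator of the LPS response, lowering some inflammatory cytokines and raising others.

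Levels are on the log2 scale, where 1 unit equals a 2-fold change. Changes are LPS plus PGE minus LPS ± SE from a limma fit, with p-values adjusted by Benjamini-Hochberg over 18755 genes, and "rose" and "fell" are used at an adjusted p under 0.05. PGE added to LPS raised 2225 genes (11.9%) and lowered 2416 (12.9%). These shares of all genes are the background for the counts of list members below. Most of these changes were small: 637 called genes moved by less than 0.25 and 2845 by 0.25 to 0.5 on the log2 scale. At least 2-fold, 106 genes rose (0.565%) and 28 fell (0.149%). The larger changes were mainly rises: 30 genes rose by at least 2 on the log2 scale against 1 that fell by as much. The values of 2915 genes (15.5%) were higher in all LPS plus PGE arrays than in any LPS array, and those of 3440 (18.3%) were lower.

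**Figure D1:**
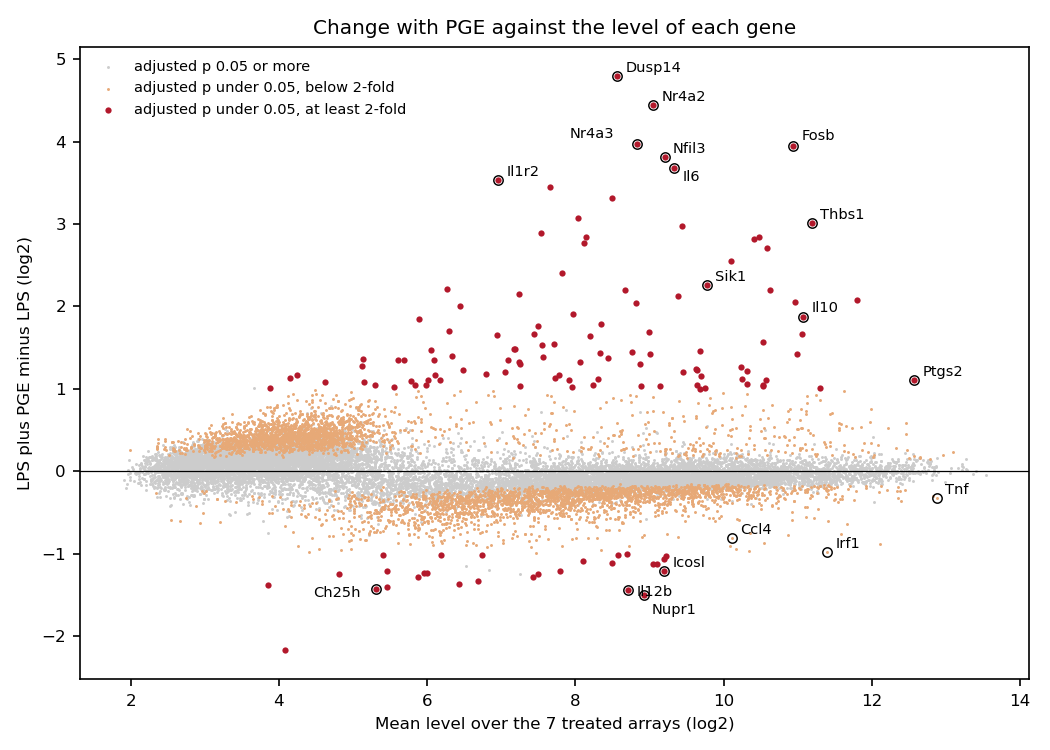
Change with PGE (LPS plus PGE minus LPS, log2) against the mean level over the 7 treated arrays, 1 point per gene, with red points for the 134 genes past an adjusted p of 0.05 and at least 2-fold; circled genes are named. Large rises reach 4.80 for Dusp14, large falls are fewer, and small called changes lie above 0 at low levels and below 0 at higher ones.

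The small changes followed the level of the gene. With the genes cut by level into 10 equal bins, bin 1 the lowest, the median change was 0.22 in bin 4, -0.22 in bin 6 and -0.03 in bin 10. The arrays themselves moved with the groups, since the lower quartile of the genes was 3.80 to 3.87 in LPS and 4.00 to 4.05 in LPS plus PGE arrays, and the median was 5.89 to 6.01 and 5.79 to 5.82. After quantile normalization the bins had medians between -0.04 and 0.02, and 932 genes rose (4.97%) and 967 fell (5.16%). After cyclic loess normalization 1135 rose (6.05%) and 1038 fell (5.53%). Part of the shift remained in that scaling, with bin medians from -0.105 in bin 6 to 0.097 in bin 4. When every array was given the same median, the median change over all genes went from -0.01 to 0.15, with 5850 rises and 718 falls. A gene was called in the same direction on the deposited values, after quantile and after cyclic loess normalization in 732 rises (3.90%) and 697 falls (3.72%). Of called changes of 0.25 to 0.5, 17.5% held in all 3 scalings, against 71.0% of those of 0.5 to 1 and 98.1% of those of 1 to 2. Without LPS replicate 3 the number of called genes fell from 4641 to 2945. What part this shift had in the small changes was not tested.

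**Figure D2:**
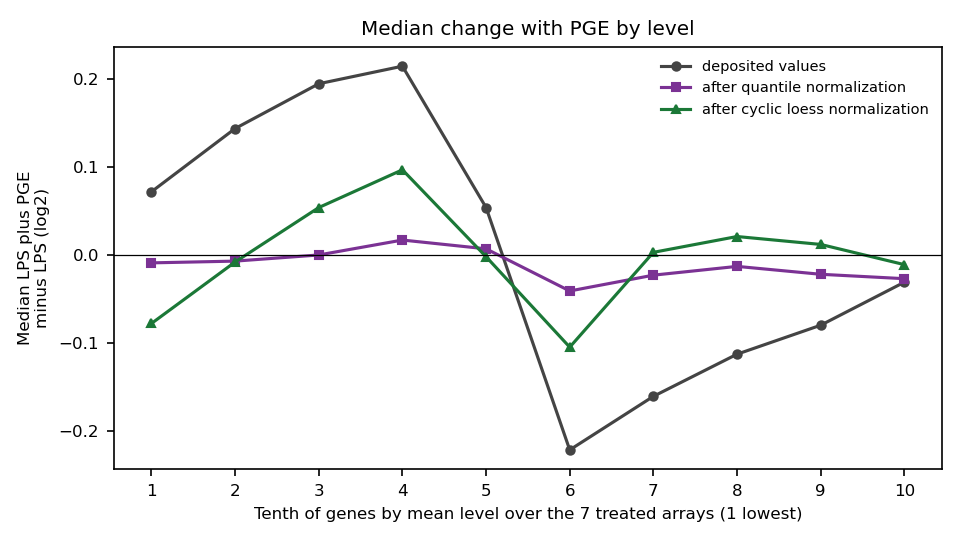
Median change with PGE (log2) in each of 10 equal bins of genes by mean level over the 7 treated arrays, for the deposited values and after quantile and cyclic loess normalization. The deposited values swing from 0.22 in bin 4 to -0.22 in bin 6, and quantile normalization leaves no bin beyond -0.04 or 0.02. Cyclic loess normalization leaves 0.097 in bin 4 and -0.105 in bin 6.

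The cells carried the markers of their label. All 11 measured macrophage markers, among them Adgre1, Csf1r and Cd68, lay above the lower quartile of the arrays, and their mean level was 11.17 to 11.23 in LPS and 11.23 to 11.29 in LPS plus PGE arrays. Markers of B cells (3.93 to 4.12 and 3.98 to 4.19) and of T and NK cells (4.09 to 4.20 and 4.05 to 4.14) were near the lower quartile in both groups. Of the 14 measured housekeeping genes and of the 16 cell cycle genes none passed, and the changes of the housekeeping genes ran from -0.16 to 0.14. In bulk arrays a lower level can come from fewer cells of a type or from less RNA per cell, and these cannot be told apart here.

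The NR4A orphan nuclear receptors and other cAMP-CREB targets rose together. Of 22 measured targets 17 rose and 1 fell, 9 of the rises at least 2-fold, and the same numbers, 17 and 1, held in all 3 scalings. The median of the list was 0.69, against -0.01 over all genes. The list was drawn up with earlier results of these data known. The NR4A receptors are nuclear receptors without a known physiological ligand, induced within minutes by cAMP and by inflammatory signals. Nr4a2 stood at 6.49, 6.60 and 6.44 in the LPS arrays and at 11.01, 10.77, 10.86 and 11.17 with PGE. It rose by 4.44 ± 0.10, or 21.7-fold (adjusted p = 1.86e-10), from an LPS level that was 0.46 above the untreated mean of 6.06. Nr4a3 stood at 6.58, 6.65 and 6.45 with LPS and at 10.83, 10.20, 10.49 and 10.61 with PGE. It rose by 3.97 ± 0.12, or 15.7-fold, from a level that LPS had already lifted above the untreated 3.93. Nr4a1 stood at 10.50, 10.57 and 10.77 with LPS and at 12.72, 12.65, 12.70 and 12.68 with PGE, a rise of 2.08 ± 0.10 or 4.21-fold. The arrays of the 2 groups were apart for all 3 receptors. The untreated levels were 6.06 for Nr4a2, 3.93 for Nr4a3 and 6.73 for Nr4a1, so the receptor with the smallest rise was the one LPS alone had raised most (3.88 ± 0.10).

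Because the 3 receptors moved together, the 250 bases ahead of their RefSeq start sites are shown, read in the direction of the gene. Capitals mark TGACG and its complement CGTCA, the core of the cAMP response element that CREB binds. The windows are chr15:101266596-101266845 (+ strand) for Nr4a1, chr2:57124004-57124253 (- strand) for Nr4a2 and chr4:48045055-48045304 (+ strand) for Nr4a3, build GRCm38.p6.
Nr4a1: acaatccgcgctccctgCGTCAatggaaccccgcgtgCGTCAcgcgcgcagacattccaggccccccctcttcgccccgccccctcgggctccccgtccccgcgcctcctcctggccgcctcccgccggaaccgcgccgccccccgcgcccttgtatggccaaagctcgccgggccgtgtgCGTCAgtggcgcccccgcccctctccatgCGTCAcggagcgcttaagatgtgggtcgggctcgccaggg
Nr4a2: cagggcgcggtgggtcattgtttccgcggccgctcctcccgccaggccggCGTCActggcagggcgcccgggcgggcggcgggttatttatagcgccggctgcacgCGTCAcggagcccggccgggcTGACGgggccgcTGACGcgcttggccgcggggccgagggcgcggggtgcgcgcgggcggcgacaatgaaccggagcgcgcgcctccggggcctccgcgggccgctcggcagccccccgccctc
Nr4a3: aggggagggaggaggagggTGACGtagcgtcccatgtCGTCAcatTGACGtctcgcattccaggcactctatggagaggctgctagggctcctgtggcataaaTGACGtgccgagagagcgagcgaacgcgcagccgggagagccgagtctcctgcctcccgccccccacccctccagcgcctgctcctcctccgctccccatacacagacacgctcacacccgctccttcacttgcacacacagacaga
Each window held 4 matches, at 233, 213, 69 and 40 bases before the start site in Nr4a1, at 200, 144, 123 and 111 in Nr4a2, and at 231, 213, 205 and 147 in Nr4a3. The position is that of the first base of the match. Of all 32851 RefSeq windows of this length, 17.8% held at least 1 match, 3.90% at least 2 and 0.137% at least 4. Of the 18110 windows of measured genes the shares were 21.5%, 5.27% and 0.188%. The full palindrome TGACGTCA, which contains both cores, was in 1.55% of all windows, in 2.07% of those of measured genes and in none of these 3. Among the 106 genes at least 2-fold higher with PGE, 80 had a window; of their 101 windows, 33.7% held at least 1 match, 2.97%, those of the NR4A genes, at least 4 and none the full palindrome. Of 22 windows of the genes at least 2-fold lower, 27.3% held at least 1 match and 1 window (4.55%) held the full palindrome. A match is a description of the letters and not of binding.

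Fosb, an AP-1 subunit, stood at 8.72, 8.47 and 8.87 with LPS and at 12.58, 12.67, 12.68 and 12.59 with PGE, a rise of 3.94 ± 0.12 or 15.4-fold. Nfil3, a basic leucine zipper repressor, went from 6.87, 7.14 and 7.08 to 10.94, 10.86, 10.83 and 10.72, a rise of 3.81 ± 0.09. LPS alone had raised it by 0.40 over the untreated 6.63. Crem, whose inducible product ICER represses CREB targets, rose by 1.48 ± 0.09 from 6.43, 6.29 and 6.32 to 7.99, 7.60, 7.73 and 7.98, and LPS alone left it near the untreated 6.34. Sik1, a salt-inducible kinase that restrains the CREB coactivators, stood at 8.24, 8.51 and 8.69 with LPS, below the untreated 9.12, and at 10.66, 10.80, 10.80 and 10.70 with PGE. Its rise was 2.26 ± 0.09. Rgs2, which limits G protein signalling, showed the same order, with an untreated mean of 10.71, LPS arrays of 9.89 to 10.29 and LPS plus PGE arrays of 11.65 to 11.91 (1.67 ± 0.10). The Kruppel-like factor Klf4 rose by 1.90 ± 0.12. Smaller rises were found for Fos (0.76 ± 0.13), the clock gene Per1 (0.74 ± 0.09), Cebpb (0.64 ± 0.07), the small GTPase Gem (0.63 ± 0.09), Junb (0.60 ± 0.07) and the phosphodiesterase Pde4b (0.47 ± 0.09). Dusp1, a phosphatase of p38 and JNK with an LPS mean of 12.97, rose by 0.23 ± 0.06, but its adjusted p was 0.0579 without LPS replicate 3. Atf3, a repressor of the CREB/ATF family, was the member that fell (-0.88 ± 0.10), from 12.57, 12.66 and 12.61 to 11.48, 11.94, 11.86 and 11.67.

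Of 33 measured genes that make, read or break down cAMP 6 rose and 3 fell, and 4 rises and 1 fall held in all 3 scalings. The called rises and falls were 18.2% and 9.09% of the list, against 11.9% and 12.9% of all genes. The rises of Sik1, Crem and Pde4b are those given above. The cAMP-responsive exchange factor Rapgef3 was lower by -0.46 ± 0.08 (adjusted p = 0.00263), although the mean of its probe sets gave -0.12 (adjusted p = 0.295). The anchoring protein gene Akap12 rose by 0.47 ± 0.10, but its adjusted p was 0.0933 after quantile normalization.

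**Figure D3:**
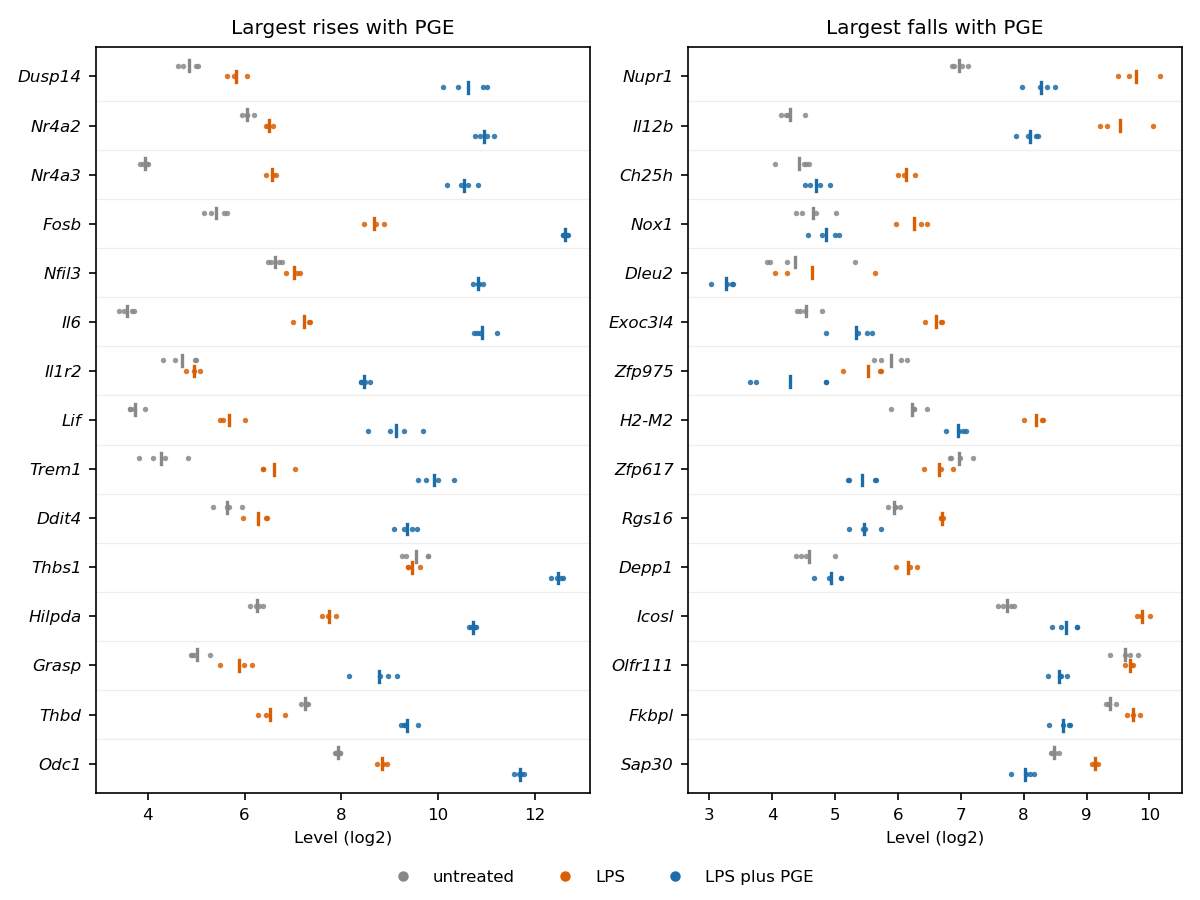
Level (log2) on every array of the 15 named genes with the largest rises and the 15 with the largest falls with PGE; points are arrays, bars are group means, grey untreated (4), orange LPS (3) and blue LPS plus PGE (4). The genes were chosen among those whose LPS and LPS plus PGE arrays do not overlap, and the rises run from 2.84 for Odc1 to 4.80 for Dusp14.

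The largest rise of all was that of Dusp14, a dual-specificity phosphatase of the MAP kinase and TAK1 pathways. It stood at 5.79, 6.04 and 5.64 with LPS and at 11.02, 10.11, 10.41 and 10.93 with PGE, a rise of 4.80 ± 0.20 or 27.8-fold (adjusted p = 2.99e-08). Il1r2, the decoy receptor that binds interleukin 1 without signalling, went from 5.09, 4.97 and 4.79 to 8.40, 8.40, 8.50 and 8.60 (3.53 ± 0.15, or 11.5-fold). Its LPS level lay near the untreated 4.71. Trem1, an activating receptor that amplifies myeloid inflammation, went from 7.04, 6.38 and 6.39 to 10.32, 9.58, 9.75 and 10.01 (3.31 ± 0.25). The scaffold gene Grasp rose by 2.90 ± 0.21.

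Ddit4, an inhibitor of mTORC1, stood at 5.96, 6.45 and 6.46 with LPS and at 9.57, 9.09, 9.29 and 9.47 with PGE, a rise of 3.07 ± 0.16. Hilpda, which blocks lipolysis at lipid droplets, rose by 2.98 ± 0.08, from 7.60, 7.73 and 7.89 to 10.79, 10.78, 10.69 and 10.64. Odc1, the enzyme that starts polyamine synthesis, rose by 2.84 ± 0.07, from 8.95, 8.86 and 8.75 to 11.78, 11.58, 11.72 and 11.67. Of the 18 measured genes of glycolysis, hypoxia and itaconate synthesis, 3 rose (16.7%, against 11.9% of all genes) and none fell. They were the lactate exporter Slc16a3 (1.05 ± 0.10), the glucose transporter Slc2a1 (0.76 ± 0.07) and hexokinase Hk2 (0.37 ± 0.08). All 3 held in the 3 scalings, and the median of the list was 0.05.

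The inflammatory cytokines rose more often than they fell. Of 22 measured members 11 rose and 3 fell, 7 of the rises and 1 of the falls at least 2-fold. The shares were 50% and 13.6% of the list, against 11.9% and 12.9% of all genes, so the falls were near the background. In all 3 scalings 9 rises and 2 falls held. Il6, the pleiotropic acute-phase cytokine, stood at 7.35, 7.33 and 7.01 with LPS and at 11.22, 10.74, 10.80 and 10.87 with PGE. It rose by 3.68 ± 0.13, or 12.8-fold (adjusted p = 5.09e-09). Its relatives moved the same way: Lif rose by 3.45 ± 0.22, from 5.55, 6.02 and 5.49 to 9.69, 8.54, 9.01 and 9.29. Osm rose by 2.55 ± 0.10, from 8.76, 8.37 and 8.79 to 11.32, 11.08, 11.21 and 11.14.

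Il10, the main anti-inflammatory cytokine, rose by 1.88 ± 0.14, or 3.67-fold, from 10.17, 10.04 and 9.81 to 11.98, 11.84, 11.84 and 11.86. Il1rn, the antagonist of the interleukin 1 receptor, rose by 1.57 ± 0.12, from 9.60, 9.92 and 9.36 to 11.30, 10.98, 11.22 and 11.31. Csf3, the granulocyte growth factor, stood at 4.23, 4.43 and 4.40 with LPS, close to the untreated 4.25, and at 5.86, 5.44, 5.81 and 5.77 with PGE (1.37 ± 0.14). Tnfsf14 rose by 0.77 ± 0.18, but its adjusted p was 0.0511 without LPS replicate 3. Il1b, already at 12.31, 12.21 and 12.10 with LPS, stood at 12.78, 12.61, 12.68 and 12.57 with PGE. Its rise of 0.46 ± 0.15 (adjusted p = 0.0414) was lost in 11 of 20 alternatives, among them without any 1 of the 7 treated arrays and without untreated replicate 4, with adjusted p-values of 0.0519 to 0.127. Il1a was higher on all LPS plus PGE arrays than on any LPS array, and differed by 0.42 ± 0.22 (adjusted p = 0.17). It passed in 3 alternatives, with the LPS and LPS plus PGE arrays alone (adjusted p = 0.0160), without untreated replicate 2 (0.0397) and with equal array medians (0.0464).

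Il12b and Il23a, which encode the subunits of interleukin 23, went apart. Interleukin 12 shares the subunit encoded by Il12b, and its other subunit gene, Il12a, is not described here. Il12b stood at 9.33, 10.06 and 9.21 with LPS and at 8.24, 7.87, 8.07 and 8.20 with PGE, a fall by 1.44 on the log2 scale (SE 0.18, adjusted p = 0.000323). Il23a rose by 2.12 ± 0.15, from 8.23, 8.37 and 7.91 to 10.50, 9.96, 10.22 and 10.50. For both the LPS and LPS plus PGE arrays were apart. Il27 fell by 0.71 (SE 0.20, adjusted p = 0.0242), a call lost in 5 alternatives, with adjusted p-values from 0.0535 without LPS replicate 2 and 0.0574 without LPS plus PGE replicate 3 to 0.127 after quantile normalization. Ebi3, whose product pairs with that of Il27, rose by 0.25 ± 0.08 (adjusted p = 0.0445), with overlapping arrays. The Ebi3 call was lost with array weights (adjusted p = 0.0977), among other alternatives. Tnf, at 13.11, 13.03 and 13.07 with LPS and 12.80, 12.75, 12.73 and 12.68 with PGE, fell by 0.33 (SE 0.07, adjusted p = 0.00925). That is a small change in a gene LPS had raised by 4.51, and with equal array medians it was -0.17 (adjusted p = 0.114).

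**Figure D4:**
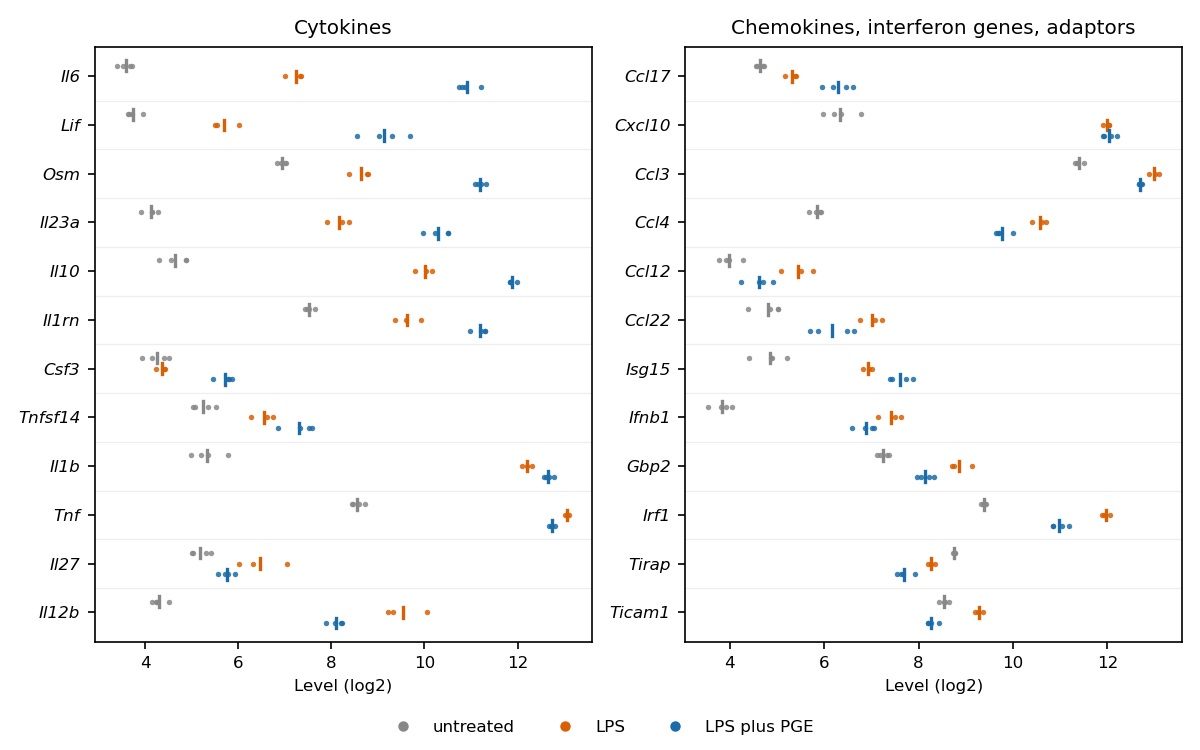
Level (log2) on every array of 12 cytokine genes and of 12 chemokine, interferon-related and adaptor genes; points are arrays, bars are group means, grey untreated (4), orange LPS (3) and blue LPS plus PGE (4). PGE arrays lie above LPS arrays for Il6, Lif, Osm, Il23a, Il10 and Il1rn and below them for Il12b, Ccl4, Gbp2, Irf1, Tirap and Ticam1, and overlap them for Cxcl10.

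Of 22 measured chemokine genes 1 rose and 5 fell, and 1 rise and 4 falls held in all 3 scalings. Ccl4, an attractant of monocytes and T cells, stood at 10.62, 10.69 and 10.41 with LPS and at 10.00, 9.69, 9.65 and 9.71 with PGE, a fall by 0.81 (SE 0.10). Ccl3, a related chemokine, fell by 0.30 (SE 0.07, adjusted p = 0.0108), and with equal array medians the value was -0.14 (adjusted p = 0.178). Ccl12, a monocyte attractant, fell by 0.83 (SE 0.18). Ccl22 fell by 0.84 (SE 0.23), but its adjusted p was 0.0602 without LPS replicate 1, 0.0669 without LPS replicate 2, 0.0536 without LPS plus PGE replicate 3 and 0.102 after quantile normalization. Ccl17, a ligand of CCR4, rose by 0.98 ± 0.13 from 5.38, 5.41 and 5.18 to 6.46, 6.19, 5.95 and 6.60. The neutrophil attractants Cxcl1 (0.18 ± 0.20) and Cxcl2 (0.13 ± 0.12) and the interferon-induced Cxcl10 (0.04 ± 0.15, adjusted p = 0.859) did not pass, and their arrays overlapped.

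The interferon arm contained more falls than rises. Of 26 measured genes 2 rose and 9 fell, but 2 of each held in all 3 scalings, and the median was -0.13. Irf1, a transcription factor of interferon responses, fell by 0.98 (SE 0.09), from 11.89, 12.06 and 11.93 to 10.84, 11.05, 11.18 and 10.84. The guanylate-binding protein gene Gbp2 fell by 0.71 (SE 0.12). Ifnb1 itself, at 7.15, 7.63 and 7.50 with LPS and 7.02, 7.06, 6.87 and 6.59 with PGE, fell by 0.54 (SE 0.15, adjusted p = 0.022). That call ended after quantile normalization (adjusted p = 0.146), with equal array medians (0.0590) and without LPS replicate 2 (0.0740), LPS replicate 3 (0.0724) or LPS plus PGE replicate 4 (0.0505). Isg15, a ubiquitin-like modifier, rose by 0.68 ± 0.17 (adjusted p = 0.0529 without LPS replicate 3).

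Among Toll-like receptors, co-receptors and adaptors, 2 of 21 measured genes rose and 8 fell, and 2 rises and 5 falls held in all 3 scalings. Ticam1, which encodes the adaptor TRIF, fell by 1.00 (SE 0.08), from 9.19, 9.36 and 9.27 to 8.43, 8.20, 8.27 and 8.19. Tirap, the bridging adaptor of MyD88, fell by 0.58 (SE 0.08). The sensor gene Nod1 fell by 0.66 (SE 0.09), Tlr1 by 0.54 (SE 0.08) and Tlr6 by 0.54 (SE 0.06). The LPS receptor itself, Tlr4, differed by -0.25 ± 0.07, a call that ended after quantile (adjusted p = 0.192) and cyclic loess normalization (0.262), with equal array medians (0.300), and without LPS replicate 1 (0.0529) or LPS replicate 3 (0.0556). Cd14, the LPS co-receptor, rose by 0.59 ± 0.06, from 12.20, 12.15 and 12.03 to 12.75, 12.69, 12.68 and 12.73.

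Of 17 measured NF-kB subunits, inhibitors and feedback genes, 5 rose with PGE and 1 fell, and all 6 held in the 3 scalings. LPS alone had raised all 17 over untreated cells, where 6.55% of all genes rose and 6.69% fell; that comparison shares the LPS arrays with this one. The inhibitors Nfkbia (0.04 ± 0.06, adjusted p = 0.626) and Tnfaip3 (0.03 ± 0.08) did not pass, and neither did Nfkbiz (-0.02 ± 0.12). The early response gene Ier3 rose by 1.44 ± 0.12, from 7.91, 7.69 and 8.20 to 9.53, 9.21, 9.33 and 9.44. Nfkbie, an inhibitor of NF-kB, rose by 0.70 ± 0.08, and the subunit gene Rel by 0.31 ± 0.08. The kinase gene Ikbke was lower (-0.38 ± 0.08), and with equal array medians its value was -0.22 (adjusted p = 0.0888).

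The inhibitors of MAP kinase and JAK-STAT signalling changed in both directions. Of 24 measured genes 11 rose and 5 fell, and all of these held in the 3 scalings. Beside Dusp14, the phosphatases Dusp2 (1.01 ± 0.10), Dusp5 (0.91 ± 0.07) and Dusp10 (0.60 ± 0.10) rose, while Dusp8 fell by 0.66 (SE 0.11) and Dusp4 by 0.60 (SE 0.08). Dusp5 stood at 10.63, 10.64 and 10.55 with LPS and at 11.60, 11.48, 11.46 and 11.51 with PGE. Dusp4 went the other way, from 11.38, 11.31 and 11.10 to 10.74, 10.62, 10.64 and 10.68. The Sprouty-related inhibitors of ERK signalling divided too: Spred2 rose by 0.71 ± 0.09, while Spry1 fell by 0.89 (SE 0.13), Spred1 by 0.58 (SE 0.07) and Spred3 by 0.58 (SE 0.08). Of the cytokine signalling inhibitors Cish rose by 1.54 ± 0.13 and Socs1 by 1.19 ± 0.15, and Socs3, at 11.52 to 11.72 with LPS, did not pass (-0.18 ± 0.12, adjusted p = 0.307). The kinase gene Pim3 rose by 1.46 ± 0.10.

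Immediate-early transcription factors showed 7 rises and 4 falls among 23 measured genes, with 7 and 3 in all 3 scalings. Fosl2, an AP-1 subunit, rose by 2.05 ± 0.07, from 9.80, 9.72 and 9.85 to 11.81, 11.77, 11.86 and 11.92, and the antiproliferative gene Btg2 by 0.86 ± 0.12. Egr2 fell by 0.61 (SE 0.07) and the Kruppel-like factor Klf10 by 0.76 (SE 0.10), while Egr1 did not pass (0.13 ± 0.11). Of 12 measured mRNA decay factors 3 rose and none fell. These were Btg2, the endoribonuclease gene Zc3h12a, which degrades cytokine transcripts (0.65 ± 0.06), and Tob1 (0.58 ± 0.09).

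**Figure D5:**
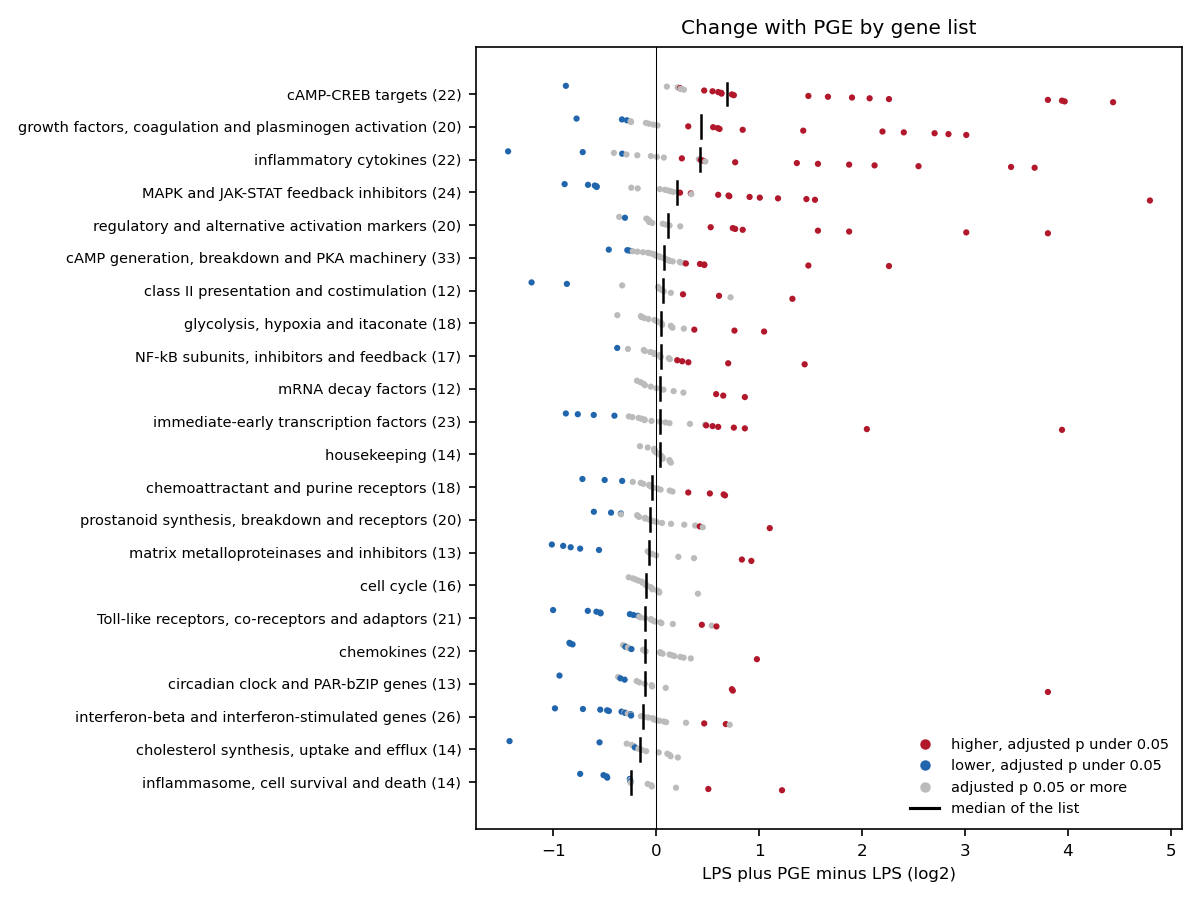
Change with PGE (LPS plus PGE minus LPS, log2) of every measured gene in 22 lists, with the number of genes in parentheses; red and blue points passed an adjusted p of 0.05 upward and downward, grey points did not, and black bars are list medians. The median is highest for cAMP-CREB targets at 0.69, and lies at 0.04 for housekeeping genes. The lists were drawn up with earlier results of these data known, so their order is partly fixed by that choice.

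Of 20 measured genes of growth factors, coagulation and plasminogen activation 11 rose and 3 fell, 6 of the rises at least 2-fold, with 10 rises and 1 fall in all 3 scalings and a median of 0.43. Thbs1, the matrix protein thrombospondin, stood at 9.39, 9.39 and 9.64 with LPS, near the untreated 9.55, and at 12.54, 12.34, 12.47 and 12.59 with PGE (3.01 ± 0.14, or 8.08-fold). Thbd, the anticoagulant receptor thrombomodulin, rose by 2.84 ± 0.12, from 6.45, 6.27 and 6.83, below the untreated 7.26, to 9.59, 9.29, 9.23 and 9.32. Procr, the protein C receptor that works with thrombomodulin, rose by 2.71 ± 0.09, from 9.15, 9.13 and 8.84 to 11.91, 11.57, 11.72 and 11.78.

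Vegfa, the angiogenic growth factor, rose by 2.20 ± 0.09 or 4.59-fold, from 9.20, 9.41 and 9.50 to 11.49, 11.59, 11.65 and 11.54. Inhba, which encodes the activin A subunit, rose by 2.41 ± 0.21. Serpinb2, an inhibitor of plasminogen activators, rose by 1.43 ± 0.14 and the growth factor gene Hbegf by 0.84 ± 0.16. Plaur, the urokinase receptor gene, rose by 0.62 ± 0.07. The tissue plasminogen activator gene Plat also rose, by 2.04 ± 0.32. Plat is outside the lists and the counts of named genes, and was chosen after its value was seen. Tissue factor F3, which starts coagulation, rose by 0.60 ± 0.15, but its adjusted p was 0.0684 without LPS replicate 3. Pdgfb fell by 0.77 (SE 0.08), from 11.35, 11.24 and 11.35 to 10.60, 10.46, 10.53 and 10.57.

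Of 13 measured matrix metalloproteinases, related enzymes and inhibitors 2 rose, 5 fell and 6 did not pass, with a median of -0.07. All 7 calls held in the 3 scalings. The collagenase Mmp13 fell by 0.90 (SE 0.15), from 10.86, 10.70 and 10.24 to 9.92, 9.48, 9.50 and 9.89. The cross-linking enzyme Lox fell by 1.01 (SE 0.09), the aggrecanase Adamts1 by 0.83 (SE 0.11), Mmp10 by 0.74 (SE 0.16) and Mmp14 by 0.55 (SE 0.09). Timp1, a metalloproteinase inhibitor, rose by 0.93 ± 0.19 and Mmp19 by 0.83 ± 0.06.

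Of 20 regulatory and alternative activation markers 8 rose and 1 fell, and the same numbers held in all 3 scalings. The rises were those of Nfil3, Thbs1, Il10, Il1rn, Hbegf, Tnfsf14, Sphk1 (0.75 ± 0.12) and the interleukin 4 receptor gene Il4ra (0.53 ± 0.08), and the fall that of the scavenger receptor gene Msr1 (-0.30 ± 0.07). With equal array medians Msr1 was at -0.14 (adjusted p = 0.145). Sphk1, which makes sphingosine 1-phosphate, stood at 6.26, 6.18 and 5.85 with LPS and at 7.09, 6.64, 6.83 and 6.82 with PGE. Arg1, the arginine-degrading enzyme of alternatively activated macrophages, did not pass (0.10 ± 0.13, adjusted p = 0.593), and its arrays overlapped.

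Of 20 measured prostanoid genes 2 rose (10%) and 3 fell (15%), near the 11.9% and 12.9% of all genes. In all 3 scalings 1 rise and 2 falls of the list held. Ptgs2, the inducible cyclooxygenase, rose by 1.11 ± 0.10 or 2.15-fold, from 12.13, 11.99 and 11.70 to 13.09, 13.01, 13.03 and 13.06. Ptger4, the gene of the EP4 receptor, stood at 10.38, 10.12 and 10.17 with LPS and at 9.53, 9.75, 9.66 and 9.56 with PGE, a fall by 0.60 (SE 0.09). Ptger3 fell by 0.44 (SE 0.12), but its adjusted p was 0.0690 without LPS replicate 1, 0.0538 without LPS replicate 3, 0.0518 without LPS plus PGE replicate 1 and 0.0677 with equal array medians. Ptger2, the gene of EP2, was lower by -0.34 ± 0.08 (adjusted p = 0.0107), and its adjusted p was 0.255 after quantile normalization, 0.103 after cyclic loess and 0.0791 with equal array medians.

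Costimulatory ligands went apart. Cd86, a ligand of CD28, rose by 1.33 ± 0.13, from 7.04, 7.62 and 7.25 to 8.78, 8.47, 8.54 and 8.73, and Cd80 by 0.61 ± 0.12. Icosl, the ligand of ICOS, fell by 1.21 (SE 0.11), from 10.00, 9.81 and 9.86 to 8.85, 8.44, 8.59 and 8.84, and Ciita, the master regulator of class II genes, by 0.87 (SE 0.10). In all, 3 of 12 measured genes of class II presentation and costimulation rose and 2 fell. These were 25% and 16.7% of the list, against 11.9% and 12.9% of all genes.

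Among 18 measured chemoattractant and purine receptors 4 rose (22.2%) and 3 fell (16.7%), against 11.9% and 12.9% of all genes. The rises were those of S1pr1 (0.67 ± 0.10), Ccr7 (0.66 ± 0.17, adjusted p = 0.0715 without LPS replicate 3), Ccrl2 (0.52 ± 0.07) and Cxcr4 (0.31 ± 0.06). P2ry13, a receptor for ADP, fell by 0.72 (SE 0.10). Inflammasome and cell survival genes showed 2 rises and 6 falls among 14 measured, with 2 and 3 in all 3 scalings. Phlda1 rose by 1.22 ± 0.12 and the sensor gene Nlrp3 by 0.51 ± 0.09, while the death receptor gene Fas fell by 0.74 (SE 0.10) and the DNA sensor gene Aim2 by 0.48 (SE 0.07).

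Of 14 cholesterol genes none rose and 3 fell (21.4%, against 12.9% of all genes), 2 of them in all 3 scalings. Ch25h, which makes 25-hydroxycholesterol, fell by 1.42 (SE 0.14), from 6.27, 6.10 and 6.00 to 4.60, 4.76, 4.52 and 4.92. That is close to its untreated 4.42. Mylip, which degrades the LDL receptor, fell by 0.55 (SE 0.06). Of 13 clock and PAR-bZIP genes 3 rose (Nfil3, Bhlhe40 and Per1) and 3 fell, and the 3 rises and 1 fall, that of Bhlhe41 (-0.94 ± 0.11), held in all 3 scalings. Each direction held 23.1% of the list, against 11.9% and 12.9% of all genes.

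Outside small RNA genes the largest named fall was that of Nupr1, a stress-induced chromatin protein. It stood at 9.50, 10.16 and 9.68 with LPS and at 8.51, 7.98, 8.26 and 8.37 with PGE, a fall by 1.50 (SE 0.15, adjusted p = 7.16e-05), against an untreated 6.97. Nox1, an NADPH oxidase subunit, fell by 1.41 (SE 0.17), from 6.36, 6.46 and 5.96 to 5.06, 4.58, 4.79 and 5.00. Rgs16, another regulator of G protein signalling, fell by 1.23 (SE 0.10), from 6.72, 6.68 and 6.68 to 5.47, 5.22, 5.45 and 5.73, below the untreated 5.94.

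Exoc3l4 fell by 1.28 (SE 0.16), Depp1, a target of FoxO factors, by 1.21 (SE 0.15), and Sap30, a subunit of the Sin3 histone deacetylase complex, by 1.11 (SE 0.08). Fkbpl fell by 1.12 (SE 0.09), the class Ib gene H2-M2 by 1.24 (SE 0.13) and Olfr111, annotated as an olfactory receptor, by 1.12 (SE 0.10). H2-M2 and Olfr111 belong to families of similar genes, and signal from relatives was not told apart here. Dleu2 fell by 1.38 (SE 0.38) to a level below the lower quartile of the LPS plus PGE arrays, so its size is uncertain, and its adjusted p was 0.0771 without LPS replicate 1 and 0.0593 without LPS plus PGE replicate 1. Of 313 genes named Zfp with a number, many of them zinc finger repressors, 143 fell and 9 rose, with a median of -0.27. These were 45.7% and 2.88% of the list, against 12.9% and 11.9% of all genes. After cyclic loess normalization 80 of the Zfp genes fell and 6 rose with a median of -0.18, and 65 falls and 3 rises held in all 3 scalings. Zfp617 fell by 1.23 (SE 0.15) and Zfp975 by 1.25 (adjusted p = 0.0503 without LPS replicate 3), and Zfp667 was the member that rose most (1.66 ± 0.12).

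MicroRNAs silence transcripts that pair with their seed, bases 2 to 8 of the mature strand, and the array reads the gene and not the mature strands. Of 294 measured miRNA genes 51 rose and 15 fell, where 11.9% of all genes rose and 12.9% fell. After quantile normalization 21 miRNA genes rose and 21 fell, and after cyclic loess 20 and 17. In all 3 scalings 16 rises and 10 falls held, where the shares of all genes were 3.90% and 3.72%. The 2 clusters described here hold 5 of the miRNA genes and were picked out after their values were seen. Mir212 and Mir132, neighbours within 360 bases at chr11:75173388-75173747 (+ strand) and known as CREB targets, both rose. Mir23b, Mir27b and Mir24-1, within 792 bases at chr13:63300484-63301275 (+ strand), all fell. Mature strands from RefSeq (GRCm38.p6) are given with the seed in capitals, since the rising pair shares a seed and the 2 falling strands shown do not.
mmu-miR-132-3p: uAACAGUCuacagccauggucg
mmu-miR-212-3p: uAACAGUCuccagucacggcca
mmu-miR-27b-3p: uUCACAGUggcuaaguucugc
mmu-miR-24-3p: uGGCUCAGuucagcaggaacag
Mir212 stood at 5.27, 5.58 and 5.47 with LPS and at 6.60, 6.70, 6.66 and 6.50 with PGE, a rise of 1.17 ± 0.09. Mir132 stood at 3.27, 3.59 and 3.86 with LPS and at 4.42, 4.70, 5.16 and 4.67 with PGE. Its rise of 1.16 ± 0.16 starts from a level below the lower quartile of the LPS arrays, which leaves its size uncertain, and was 0.99 after quantile and 1.03 after cyclic loess normalization. Both genes were near their untreated levels (5.31 and 3.66) with LPS alone.

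Mir27b fell by 1.36 (SE 0.10), from 7.11, 7.12 and 7.40 to 5.96, 5.99, 5.66 and 5.78. Mir24-1 fell by 1.33 (SE 0.13) and Mir23b by 1.29 (SE 0.15), and with LPS alone all 3 were near their untreated levels of 7.28, 7.51 and 8.34. Mir146, the gene of miR-146a, which targets Toll-like receptor signalling, stood at 5.13, 5.38 and 5.45 with LPS and at 3.01, 3.14, 3.18 and 3.26 with PGE. It fell by 2.17 (SE 0.09, adjusted p = 1.84e-08) to a level below the lower quartile of those arrays, which leaves its size uncertain. Mir15a, which lies in Dleu2, fell by 1.21 (SE 0.17).

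Markers of other blood and stromal cells gave few calls. Of 10 mast cell and basophil markers 2 rose, in all 3 scalings: Hdc, the histamine-producing enzyme (1.47 ± 0.10), from 5.19, 5.19 and 5.25 to 6.85, 6.38, 6.73 and 6.76, and the transcription factor gene Gata2 (1.23 ± 0.15). The other 8, with the defining genes Kit, Fcer1a, Ms4a2 and Cpa3, did not pass, and 5 of the 10 lay below the lower quartile of the LPS plus PGE arrays. The mean level of that list was 3.94 to 4.19 in LPS and 4.30 to 4.43 in LPS plus PGE arrays. Neutrophil markers had no call among 11 measured, dendritic cell markers 1 rise (Ccr7) and 1 fall among 12, B cell markers 2 rises among 8, T and NK cell markers 1 rise and 1 fall among 10, erythroid markers 1 rise among 4 and stromal markers 2 rises and 1 fall among 12. In the 3 scalings there remained 1 rise among dendritic cell markers, 1 fall among T and NK cell markers (Klrb1c, -0.98 ± 0.18, with its LPS plus PGE level below the lower quartile), and 1 rise among stromal markers (Col3a1, 0.44 ± 0.07).

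Genes that treatment itself moved were taken from the average of the LPS and LPS plus PGE levels set against untreated cells, at least 2-fold and past an adjusted p of 0.05. An effect of PGE enters that average, so a gene can be in the set because PGE moved it, and the counts are a description that is partly fixed by the choice. Of 307 genes raised by treatment, 141 were higher with PGE than with LPS alone, 54 were lower and 112 did not pass. After cyclic loess normalization 147 of 326 were higher and 39 lower. Of 125 genes lowered by treatment, 3 were higher and 77 lower with PGE, and after cyclic loess normalization 2 and 54 of 106.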

How the data were processed

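Labelled RNA (from 250 ng) was hybridised to Affymetrix mouse gene arrays. Per the submitters' processing notes, the authors used RMA, Affymetrix Power Tools, R 2.13.1 and Partek, with no roles given. The deposited values are taken as log2, from RMA and their range (1.21 to 13.81). No build is named: not given in the sources used here.

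Of 35309 probe sets, 21143 had 1 gene symbol, 1870 several and 12296 none. The probe set with the highest mean was kept for each gene, which gave 18755 genes. A group-means model over all 11 arrays was fitted with limma 3.58.1 in R 4.3.3 (8 residual and 3.77 prior degrees of freedom), unpaired and two-sided. Numbers shared between LPS and LPS plus PGE arrays were not taken as pairs (correlations of their deviations 0.10, 0.05 and 0.16). On simulated data of 18755 genes for this comparison the fit recovered 64% of changes of 0.5 and 94% of changes of 1 among 200 changed genes, with 7 false calls. Since 4641 genes were called in the data, that setting differs from them, and the 7 false calls give no error rate for these calls.

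Genes were named by rule: the 15 largest rises and falls whose arrays did not overlap, without predicted and small RNA genes, a set of chosen genes, and up to 5 called members of each of 23 pathway and 8 cell type lists. Members of lists named beyond that, and the miRNA genes, were chosen after their values were seen. Members and lists were chosen with earlier results of these data known. Listed genes not measured were not analysed here. Alternatives were quantile, cyclic loess and equal-median scaling, trended and robust variance, array weights, the LPS and LPS plus PGE arrays alone, the dimmest genes left out, averaged probe sets, a replicate block and each array left out. Promoter and miRNA sequences came from RefSeq tables (GRCm38.p6), matched by symbol. Plots used matplotlib 3.10.9.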

Additional observations from a re-analysis of the deposited data

Results flagged for a closer look

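Among the named genes, 1 array stood apart from the other 3 of its group, by Dixon's gap test, in 15 of 364 groups of 4 arrays, and chance marks about 1 group in 20. In LPS plus PGE arrays these were Il10 in replicate 1 (11.98, the others 11.84 to 11.86), Ptger2 in replicate 4 (6.29, the others 6.54 to 6.56), Ikbke in replicate 3 (9.19, the others 9.10) Tnfaip3 in replicate 3 (12.18, the others 12.12 to 12.13) and Casp4, an inflammatory caspase gene, in replicate 1 (9.52, the others 9.15 to 9.17).

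In untreated arrays, replicate 1 stood apart for Dusp1 (10.03), Atf3 (12.04), Tob1 (8.27) and Spred2 (8.69). Replicate 3 stood apart for Ch25h (4.05), Hbegf (4.19), Fas (6.51) and Dusp8 (6.05). Replicate 2 stood apart for Col3a1 (5.38) and replicate 4 for Nfkbia (9.44). Untreated arrays do not enter the difference between LPS plus PGE and LPS itself. They do enter the shared estimate of its spread, and so can move its SE and adjusted p-value.

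Probe sets without a gene symbol were outside the comparison. Of these 12296, 234 were higher and 225 lower by at least 2-fold with PGE at a limma adjusted p under 0.05 over all probe sets, against 114 and 36 of 21143 with 1 symbol.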

How the results depend on the processing

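The number of called genes depended on the scaling. Against 4641 genes (2225 rises, 2416 falls), there were 1899 after quantile normalization (932 and 967), of which 1575 were shared, and 2173 after cyclic loess normalization (1135 and 1038), of which 1795 were shared; no shared call changed direction. Equal array medians gave 5850 rises and 718 falls, with 17 falls of at least 2-fold in place of 28. Leaving out the dimmest genes gave 1260 rises and 2828 falls. Leaving out 1 array in turn gave 2945 (without LPS replicate 3) to 4455 called genes, 1518 to 2199 rises and 1412 to 2324 falls. Calls of at least 2-fold ranged from 125 to 146, and genes raised by treatment that were called from 171 to 196. With the replicate block 4698 genes were called, 3997 of them shared, and each LPS array's deviations correlated best with those of its own number. Of 169 named genes that passed, 130 passed in the same direction under all 20 alternatives, and 142 with each array left out. With that block, among named genes that passed, Il1b (adjusted p = 0.0656), Srebf1 (0.0684), Cd83 (0.0591) and Cd3d (0.0606) lost their calls. The number of arrays limits the precision, and for genes near the lower quartile of the arrays low levels were not told from none.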
